A study of Mus musculus with 6 samples.

Results

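Sarcoplasmic reticulum calcium release and uptake was examined through 10 genes, taken as the rows of the authors' gene table named Ryr2, Atp2a2, Pln, Hrc, Casq2, Casq1, Trdn, Asph, Jph2 and Slc8a1. They are 10 of 51888 features in the count tables, and all 10 passed the low-count filter that left 14302 genes for testing. RNA was sequenced from whole hearts of 3 L/L, cre mice (Elac2 -/- in the labels) and 3 L/L mice (Elac2 +/+), all on a C57BL/6 background, as paired-end TruSeq libraries. Mice of both groups carried Elac2 alleles with an exon between loxP sites, and the L/L, cre mice also expressed cre from the muscle creatinine kinase promoter (so spelled in the labels), a striated-muscle promoter, which removed that exon. The labels give neither age nor sex, heart cells without cre keep the gene, and no group carried cre without the loss of Elac2. Elac2 encodes RNase Z, an endonuclease that removes trailers from newly made tRNAs. It had 101, 97 and 81 counts in the L/L, cre libraries, against 200, 126 and 112 in the L/L libraries, lower by a log2 fold change of -1.27 (SE 0.15, edgeR adjusted p = 2.12e-04). These counts take in exons that cre leaves in place.

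In heart muscle each beat begins when calcium enters through L-type channels and opens ryanodine receptors, which release a far larger amount of calcium from the sarcoplasmic reticulum. The muscle relaxes as the SERCA pump returns calcium to that store and the sodium-calcium exchanger carries the rest out of the cell. Phospholamban holds the pump back until it is phosphorylated, calsequestrin and the histidine-rich calcium-binding protein buffer calcium inside the store, and triadin, junctin and junctophilin hold the release site together.

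In the L/L, cre hearts 7 of the 10 genes fell and none passed the test for a rise (edgeR quasi-likelihood test, Benjamini-Hochberg adjusted p under 0.05 over all tested genes, as for every adjusted p of a single gene). Hrc fell 9.55-fold, Ryr2 3.05-fold, Atp2a2 2.38-fold and Pln 1.99-fold. Jph2, Asph and Trdn fell by 1.53-fold, 1.43-fold and 1.34-fold, falls that turned to small rises when libraries were scaled by library size alone. That scaling set the median log2 fold change of all tested genes at 0.68, above the values of these genes. Casq2, Casq1 and Slc8a1 did not pass the test. The fitted log2 fold changes ran from -3.26 for Hrc to 0.29 for Slc8a1, with a median of -0.56, against -0.01 over all tested genes. The share called lower was 70.0% of these genes, against 17.8% of all tested genes, and the share called higher was 0%, against 18.7%. The 10 genes were chosen with earlier results of these data known, so these shares are a description only. In 8 genes all 3 L/L, cre libraries lay below all 3 L/L libraries, in 1 gene, Slc8a1, they lay above, and Casq1 overlapped. Of all tested genes 24.5% did not overlap in the lower direction and 26.2% in the higher. Summed over the 10 genes, counts made up 1.39% to 1.67% of nuclear-encoded counts in L/L, cre libraries and 2.83% to 3.13% in L/L libraries. In these bulk hearts fewer cardiomyocytes and less RNA per cardiomyocyte cannot be told apart.

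**Figure D1:**
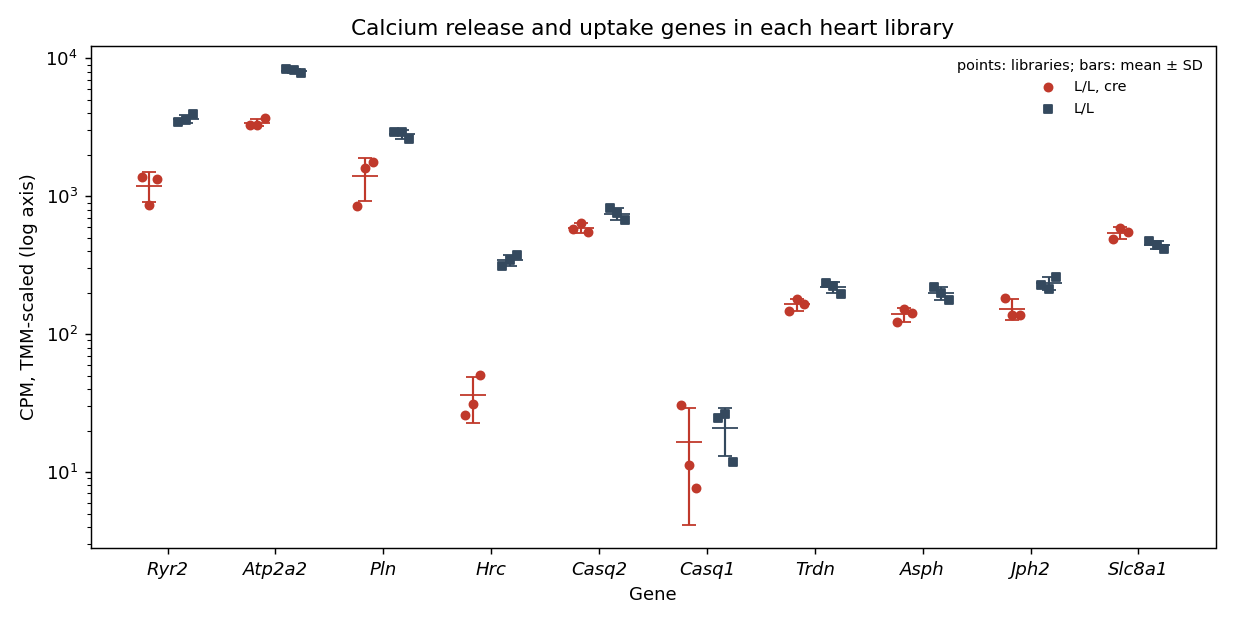
Level of each gene in CPM (TMM-scaled, log axis) in 3 L/L, cre libraries (red circles) and 3 L/L libraries (dark squares), with bars for mean and SD. Hrc averages 36.0 CPM in L/L, cre and 343 CPM in L/L, Slc8a1 lies slightly higher in L/L, cre, and Casq1 overlaps.

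The libraries held 9850100 to 14461110 counts in L/L, cre and 12057962 to 14276410 counts in L/L. Mitochondrial-encoded features took 33.3% to 36.7% of the counts in L/L, cre libraries and 49.3% to 61.1% in L/L libraries. With library size alone as the scaling, the median log2 fold change of all tested genes was 0.68. The 11 cardiomyocyte markers, contractile genes with myoglobin, summed to 65619.8 to 68173 CPM (counts scaled per library with TMM factors, which align the bulk of genes between libraries) in L/L, cre and to 93966 to 95081 CPM in L/L. On that scale 4 of them were lower and 0 higher, with a median log2 fold change of -0.39, and Myh6 (-1.32) and Mb (-0.95) had the smallest adjusted p. Over all tested genes 17.8% were called lower and 18.7% higher, the shares to set beside the marker counts. Of 7 endothelial markers 4 were lower and 0 higher, with a sum of 413 to 458 CPM in L/L, cre and 542 to 624 CPM in L/L. Of 7 smooth muscle and pericyte markers 2 were lower and 2 higher, with a sum of 544 to 639.9 CPM in L/L, cre and 798 to 1018 CPM in L/L. No fibroblast marker of 7 was called, with a sum of 745 to 1239 CPM in L/L, cre and 573 to 849 CPM in L/L. Of 6 atrial markers 1 was lower and 0 higher, with a sum of 293 to 478 CPM in L/L, cre and 174 to 714 CPM in L/L. Within the L/L group all 6 were lowest in replicate 2. Bmp10 varied most, at 146, 7.37 and 84.8 CPM in L/L, cre libraries, against 115, 0.444 and 186 CPM in L/L libraries. Macrophage markers had 1 of 9 higher and a sum of 233 to 269.5 CPM in L/L, cre and 223 to 241 CPM in L/L. Erythroid markers had 1 of 5 higher and a sum of 1435 to 2934 CPM in L/L, cre and 520.5 to 1788 CPM in L/L. The 10 fast skeletal muscle markers, 1 of them abundant enough to test, summed to 3.56 to 5.11 CPM in L/L, cre and 4.11 to 6.16 CPM in L/L. No listed marker was at 0 in all 6 libraries. With TMM factors computed without mitochondrial-encoded genes the same number of the 10 genes, 7, was called lower and 0 higher, with Hrc at -3.25 and Ryr2 at -1.60. Values scaled to the cardiomyocyte markers are given below, and the part of the other cell types in the results was not tested.

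Hrc encodes the histidine-rich calcium-binding protein, a store protein that binds triadin and the SERCA pump. Its level was 25.8, 31.2 and 51.0 CPM in the L/L, cre libraries, against 313, 343 and 372 CPM in the L/L libraries. The groups stood far apart, and L/L, cre replicate 3 was the highest of its group. The fitted log2 fold change of -3.26 (SE 0.24, adjusted p = 1.64e-05) was number 43 from the lowest of 14302 tested genes. Ordered by mean level, Hrc was gene 2719 in L/L, cre hearts and gene 160 in L/L hearts. Hrc (ENSMUSG00000038239.11) lies on chromosome 7 from 45335290 to 45338974 on the plus strand (mm10) and shares no exon base with another annotated gene.

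Ryr2 encodes the cardiac ryanodine receptor, the channel through which the store releases calcium. It was at 1388, 859 and 1339 CPM in L/L, cre libraries, against 3472, 3557 and 3918 CPM in L/L libraries. L/L, cre replicate 2 was the lowest, and the coefficient of variation was 24.4% in L/L, cre and 6.49% in L/L. The log2 fold change was -1.61 (SE 0.21, adjusted p = 4.04e-04) and lay between -1.73 and -1.42 with any 1 library left out. Ryr2 (ENSMUSG00000021313.16) lies on chromosome 13 from 11553102 to 12106945 on the minus strand and shares no exon base with another gene.

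To set the promoters of genes that fell beside those of genes that did not pass the test, the 250 bases before the annotated start are shown for Hrc (chr7:45335019-45335268, plus strand), Ryr2 (chr13:12106946-12107195, minus strand), Casq2 (chr3:102086165-102086414, plus strand) and Slc8a1 (chr17:81738388-81738637, minus strand), from RefSeq on GRCm38.p6, 5′ to 3′, with motif matches in capitals.
Hrc: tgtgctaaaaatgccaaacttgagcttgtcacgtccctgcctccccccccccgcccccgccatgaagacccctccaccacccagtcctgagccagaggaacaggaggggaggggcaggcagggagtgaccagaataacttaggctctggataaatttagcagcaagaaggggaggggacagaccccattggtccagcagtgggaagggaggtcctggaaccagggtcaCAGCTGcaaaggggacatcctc
Ryr2: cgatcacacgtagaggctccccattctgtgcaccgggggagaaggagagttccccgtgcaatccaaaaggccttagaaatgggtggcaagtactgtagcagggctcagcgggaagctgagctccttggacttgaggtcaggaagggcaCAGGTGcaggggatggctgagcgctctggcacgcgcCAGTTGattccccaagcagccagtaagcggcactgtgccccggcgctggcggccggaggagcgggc
Casq2: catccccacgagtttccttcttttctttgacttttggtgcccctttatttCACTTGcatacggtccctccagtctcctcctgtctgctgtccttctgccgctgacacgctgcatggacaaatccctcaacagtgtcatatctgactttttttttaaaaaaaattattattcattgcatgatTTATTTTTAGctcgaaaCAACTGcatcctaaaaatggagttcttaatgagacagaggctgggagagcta
Slc8a1: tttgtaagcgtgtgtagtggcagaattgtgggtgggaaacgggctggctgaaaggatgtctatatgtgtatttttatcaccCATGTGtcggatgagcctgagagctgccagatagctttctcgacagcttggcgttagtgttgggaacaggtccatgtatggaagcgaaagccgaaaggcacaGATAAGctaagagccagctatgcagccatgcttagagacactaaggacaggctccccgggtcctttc
Windows were found for 7 of the 10 genes. The capitals mark matches on either strand to any of 6 motifs, the MEF2 motif and the CArG box among them. The E-box was searched as CANNTG and the core promoter motif bound by TBP was searched as TATAAA. The motif bound by the zinc-finger factor GATA4 was searched as GATAAG and the C/EBP-ATF element was searched as TGATGNAA. Hrc has 1 E-box, starting 22 bases before the start site. Ryr2 has 2 E-boxes, Casq2 has 2 E-boxes and 1 MEF2 match starting 69 bases before the start site, and Slc8a1 has 1 E-box and 1 GATA4 motif. Among windows not shown, that of Pln, which fell, has 1 E-box, 1 GATA4 motif and 1 TBP motif. Those of Jph2, which fell, and Casq1, which did not pass the test, have E-boxes only. The Casq2 MEF2 match was the only one in the 7 genes' windows, none of which held a C/EBP-ATF element or a CArG box. Over all 32851 windows of the same length, an E-box was present in 66.2%, a MEF2 match in 2.92%, a GATA4 motif in 6.55%, a TBP motif in 12.4%, a C/EBP-ATF element in 3.45% and a CArG box in 1.47%. GC content was 59.6% for Hrc, 63.2% for Ryr2, 41.6% for Casq2 and 50.4% for Slc8a1.

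Uptake genes fell in both the pump and its inhibitor. Atp2a2, which encodes the SERCA2 pump of heart muscle and its ubiquitous splice form, was at 3299, 3309.6 and 3669 CPM in L/L, cre libraries, against 8334, 8254 and 7836 CPM in L/L libraries. These were the tightest groups of the 10 genes, with coefficients of variation of 6.16% in L/L, cre and 3.28% in L/L. The log2 fold change was -1.25 (SE 0.18, adjusted p = 5.93e-04), and library size alone gave -0.56 (adjusted p = 0.0694). Counts per gene do not separate the 2 splice forms. Atp2a2 (ENSMUSG00000029467.15) lies on chromosome 5 from 122453513 to 122502225 on the minus strand. Pln, which encodes phospholamban, was at 852, 1611 and 1775 CPM in L/L, cre libraries, against 2906, 2943 and 2587 CPM in L/L libraries. L/L, cre replicate 1 was far below the other two L/L, cre libraries, yet no library of either group reached into the other. Its log2 fold change was -0.99 (SE 0.26, adjusted p = 0.0133), -0.73 without L/L, cre replicate 1, and -0.31 (adjusted p = 0.342) with library size alone. Pln (ENSMUSG00000038583.13) lies on chromosome 10 from 53337667 to 53345987 on the plus strand. Annotated genes on the opposite strand, Gm47644 and Cep85l, cover 64.7% of the exon bases of Pln, and since no source used here says whether counting used strand, its level carries that uncertainty. Gm47644 had 27 to 45 counts in any library and Cep85l 312 to 493, against 16053 to 38620 for Pln. These counts do not show how reads in the shared bases were assigned.

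Apart from Hrc, the luminal calcium-binding proteins did not pass the test. Casq2, the cardiac calsequestrin and main calcium buffer of the store, was at 578, 641 and 552 CPM in L/L, cre libraries, against 827, 753 and 669.9 CPM in L/L libraries. The L/L, cre libraries all lay below the L/L libraries, with a log2 fold change of -0.35 (95% interval -0.67 to -0.02, adjusted p = 0.0864), and library size alone gave 0.34. Casq2 (ENSMUSG00000027861.13) lies on chromosome 3 from 102086415 to 102146514 on the plus strand. Casq1, the calsequestrin of fast skeletal muscle, was at 30.7, 11.2 and 7.65 CPM in L/L, cre libraries, against 24.8, 26.3 and 11.8 CPM in L/L libraries. The groups overlapped, with L/L, cre replicate 1 the highest of the 6 and a fold range of 4.02 in L/L, cre and 2.22 in L/L. Its log2 fold change was -0.33 (95% interval -1.35 to 0.68, adjusted p = 0.599). Without L/L, cre replicate 1 it was -1.15 (adjusted p = 9.41e-03), and with library size alone it was 0.35. Casq1 (ENSMUSG00000007122.11) lies on chromosome 1 from 172209894 to 172219868 on the minus strand, and the antisense gene Gm17224 covers 8.0% of its exon bases.

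The 3 genes of the junction between the store and the surface membrane had smaller fitted falls than Ryr2, and each call was lost when some single library was left out. The groups did not overlap for any of the 3. Jph2 encodes junctophilin 2, which ties the store to the T-tubule. It was at 183, 137 and 139 CPM in L/L, cre libraries, against 228, 213 and 261 CPM in L/L libraries, which is -0.61 on the log2 scale (SE 0.15, adjusted p = 0.0106). Library size alone gave 0.09, where all tested genes had a median of 0.68. Without L/L, cre replicate 2 the value was -0.54 (adjusted p = 0.0532) and without L/L replicate 3 it was -0.52 (adjusted p = 0.0523). Jph2 (ENSMUSG00000017817.11) lies on chromosome 2 from 163336242 to 163397993 on the minus strand. Asph encodes an aspartyl hydroxylase and, by alternative splicing, junctin and junctate, which counts per gene do not separate. It was at 122, 153 and 143 CPM in L/L, cre libraries, against 221, 199 and 176 CPM in L/L libraries, which is -0.51 on the log2 scale (SE 0.14, adjusted p = 0.0160). Library size alone gave 0.17. That call was lost without L/L replicate 1 (-0.42, adjusted p = 0.0571) and without L/L replicate 2 (-0.50, adjusted p = 0.0561). Asph (ENSMUSG00000028207.18) lies on chromosome 4 from 9448069 to 9669344 on the minus strand, and Clvs1 on the opposite strand covers 14.3% of its exon bases. Trdn, which encodes triadin, the protein that anchors calsequestrin to the release channel, was at 147, 181 and 165 CPM in L/L, cre libraries, against 236, 225 and 197 CPM in L/L libraries. The log2 fold change was -0.42 (SE 0.13, adjusted p = 0.0307), and library size alone gave 0.27. The Trdn call was lost without L/L, cre replicate 3 (-0.42, adjusted p = 0.0710), without L/L replicate 1 (-0.36, adjusted p = 0.0906), without L/L replicate 2 (-0.39, adjusted p = 0.106), with no filter on low counts (-0.37, adjusted p = 0.0617) and with the replicate number as a block (-0.42, adjusted p = 0.0721). Trdn (ENSMUSG00000019787.9) lies on chromosome 10 from 33080554 to 33476709 on the plus strand.

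Slc8a1, the sodium-calcium exchanger of the surface membrane, stood at 489, 593 and 547 CPM in L/L, cre libraries, against 473, 444 and 417 CPM in L/L libraries. All 3 L/L, cre libraries were above the L/L libraries, but the log2 fold change of 0.29 (95% interval -0.01 to 0.59) did not pass the test (adjusted p = 0.123). Without L/L, cre replicate 1 it was 0.36 (adjusted p = 0.0407), and it passed with library size alone at 0.97 (adjusted p = 1.04e-03), where all tested genes had a median of 0.68. Slc8a1 (ENSMUSG00000054640.14) lies on chromosome 17 from 81373105 to 81738377 on the minus strand.

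The number of genes called depended on the scaling. With library size alone 2 of the 10 genes, Hrc (-2.55) and Ryr2 (-0.90), were called lower, against 3.86% of all tested genes, and Slc8a1 was called higher, against 56.6% of all tested genes. A scaling to the summed counts of the 11 cardiomyocyte markers, chosen after the values were seen, set the median of all tested genes at 0.49. Hrc at -2.75 (adjusted p = 1.98e-05), Ryr2 at -1.10 (adjusted p = 1.84e-03) and Atp2a2 at -0.74 (adjusted p = 4.64e-03) were called lower on that scale, as were 6.13% of all tested genes. Slc8a1 at 0.79 (adjusted p = 7.04e-04) was called higher, as were 49.4% of all tested genes. The values of Pln (-0.49), Jph2 (-0.10), Asph (-0.01), Trdn (0.09), Casq2 (0.16) and Casq1 (0.18) did not pass the test on it. As given above, 4 of those 11 markers were themselves called lower in L/L, cre on the TMM scale. Their sum was mostly Ttn, at a mean of 43850.3 CPM in L/L, cre and 54474.5 CPM in L/L. Myh6 came next, at 7712 CPM in L/L, cre and 19271 CPM in L/L, so this scaling rests largely on these genes.

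**Figure D2:**
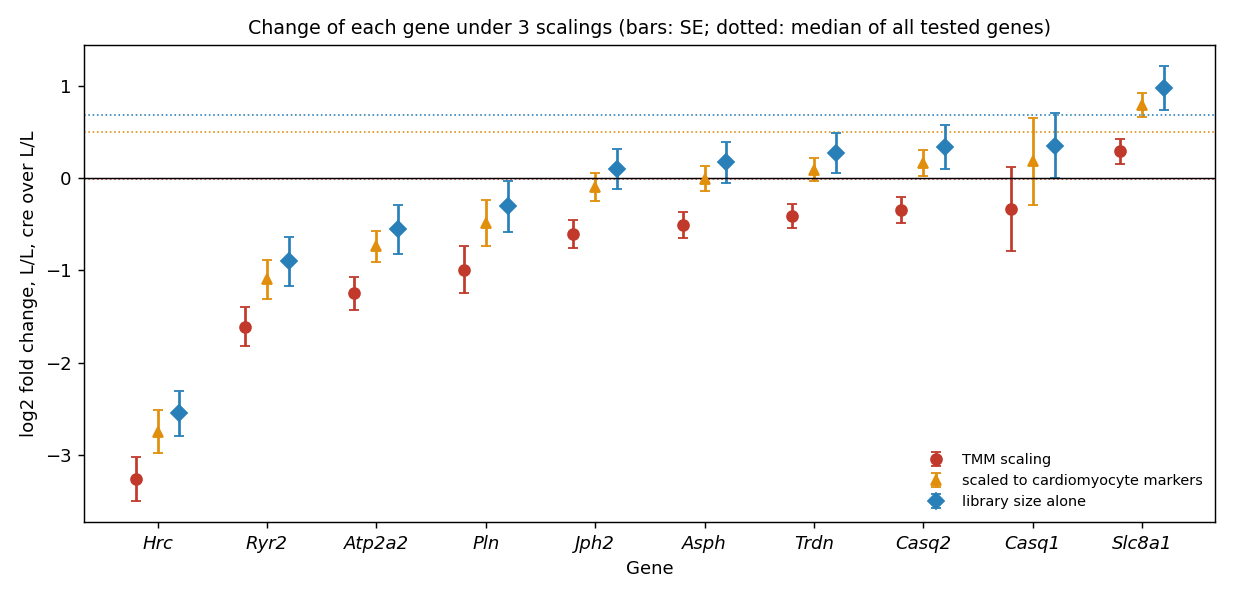
Log2 fold change of each gene, L/L, cre over L/L, with SE bars, under TMM scaling (red circles), scaling to cardiomyocyte markers (orange triangles) and library size alone (blue diamonds), with dotted lines at the median of all tested genes. Hrc, Ryr2, Atp2a2 and Pln stay below 0 in all 3 scalings, Slc8a1 stays above 0, and Jph2, Asph, Trdn, Casq2 and Casq1 lie below 0 with TMM and above 0 with library size alone.

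Ratios of counts between 2 of the genes in the same library do not depend on scaling, and 10 such ratios were compared. In 7 of them the groups did not overlap, each with a two-sided exact permutation p of 0.1, the smallest that 3 against 3 allows, and 0.143 after Benjamini-Hochberg adjustment over the 10. Among single tested genes 24.5% did not overlap in the lower direction and 26.2% in the higher. That is a different measure, and the share over other pairs of genes was not computed. Several of the 7 are ratios to Ryr2 and so share its fall. For Slc8a1 to Atp2a2, exchanger to pump, the ratio was 0.148, 0.179 and 0.149 in L/L, cre libraries, against 0.0568, 0.0538 and 0.0533 in L/L libraries, a 2.90-fold higher ratio. The Hrc to Ryr2 ratio was 0.0186, 0.0364 and 0.0381 in L/L, cre libraries, against 0.0901, 0.0965 and 0.0950 in L/L libraries, 3.18-fold lower. Hrc to Casq2 was 7.81-fold lower, taken from means of log2 ratios, as is every fold of a ratio here. Its arithmetic mean was 0.0619 ± 0.0264 in L/L, cre and 0.463 ± 0.0888 in L/L (SD, n = 3 each). Relative to Ryr2, the counts of Casq2 were 2.46-fold higher in L/L, cre, those of Trdn 2.33-fold, of Asph 2.19-fold and of Jph2 2.03-fold. Each of these genes had a fitted fall on the TMM scale, smaller than that of Ryr2.

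The phospholamban to pump ratio did not separate the groups. Pln to Atp2a2 was 0.258, 0.487 and 0.484 in L/L, cre libraries, against 0.349, 0.357 and 0.330 in L/L libraries (two-sided exact permutation p = 0.4, adjusted p = 0.444). The L/L libraries agreed closely, whereas L/L, cre replicate 1 lay below all of them and the other two L/L, cre libraries above. Ryr2 to Atp2a2 overlapped too, at 0.348 ± 0.0819 in L/L, cre and 0.449 ± 0.0446 in L/L (SD, n = 3 each, exact permutation p = 0.2), as did Casq1 to Casq2 (exact permutation p = 0.8).

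**Figure D3:**
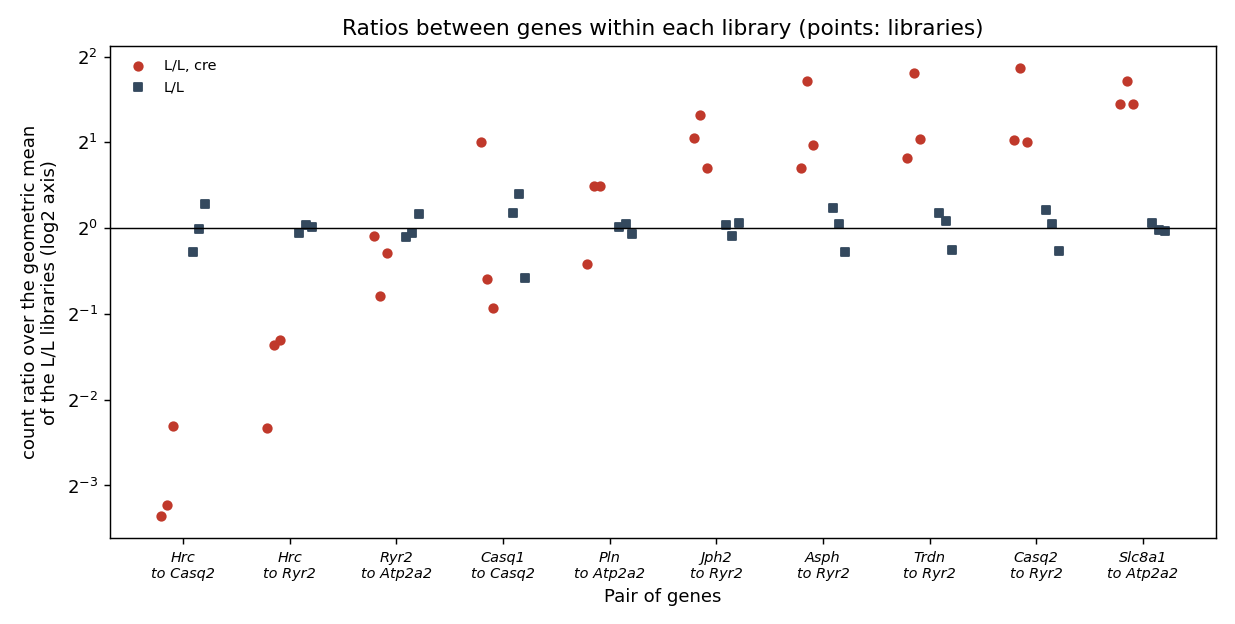
Ratio of counts between pairs of genes in each library, divided by the geometric mean of the L/L libraries (log2 axis), for 3 L/L, cre libraries (red circles) and 3 L/L libraries (dark squares). Hrc to Casq2 and Hrc to Ryr2 lie below the L/L libraries, 5 ratios lie above them, and Pln to Atp2a2, Ryr2 to Atp2a2 and Casq1 to Casq2 overlap.

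Levels between genes were compared as CPM per kilobase of merged exon length, which understates genes with long alternative exons such as Asph. In L/L, cre hearts the order was Atp2a2 (563 ± 34.7), Pln (512 ± 178), Casq2 (215.7 ± 16.7), Ryr2 (41.5 ± 10.2), Jph2 (36.0 ± 6.15), Slc8a1 (28.9 ± 2.75), Trdn (17.6 ± 1.77), Hrc (14.04 ± 5.15), Asph (8.65 ± 0.985) and Casq1 (8.47 ± 6.37 CPM per kilobase, SD, n = 3). Ranges over libraries overlapped there between Atp2a2 and Pln, between Ryr2 and both Jph2 and Slc8a1, between Trdn and Hrc, and between Casq1 and both Hrc and Asph. In L/L hearts Atp2a2 (1339 ± 43.9) was followed by Pln (1019 ± 70.9), Casq2 (274 ± 28.7), Hrc (134 ± 11.6), Ryr2 (127 ± 8.23), Jph2 (55.0 ± 5.79), Slc8a1 (23.6 ± 1.48), Trdn (23.4 ± 2.15), Asph (12.3 ± 1.40) and Casq1 (10.8 ± 4.07 CPM per kilobase, SD, n = 3). The L/L ranges overlapped between Hrc and Ryr2, between Slc8a1 and Trdn and between Asph and Casq1. Hrc thus took place 8 of 10 in L/L, cre and place 4 in L/L.

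Among other genes of calcium cycling, 76 of 78 listed were found in the tables and 66 were tested. Of these 20 were lower, 30.3% against 17.8% of all tested genes, and 10 were higher, 15.2% against 18.7%, with a median log2 fold change of -0.14. With library size alone 2 of the 66 were lower, against 3.86% of all tested genes, and 33 were higher, against 56.6%. These lists too were chosen with earlier results of these data known, so the shares are a description only.

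The micropeptide Strit1 (Gm34302 in the files), known as DWORF, displaces phospholamban from the pump. It had 5, 4 and 2 counts in L/L, cre libraries, against 51, 27 and 28 in L/L libraries, a fitted -3.85 on the log2 scale (SE 0.33, adjusted p = 3.54e-05) that rests on few reads. No other pump isoform or micropeptide was called, with 3 of that list tested. In the L-type channel complex 3 of 4 genes were lower (75%, against 17.8% of all tested genes). The pore subunit Cacna1c fell by 1.15 on the log2 scale, Cacnb2 by 0.92 and Cacna2d1 by 0.64, the last turning to 0.06 with library size alone. That scaling also ended the calls of Cacna1c (-0.43, adjusted p = 0.0801) and Cacnb2 (-0.24, adjusted p = 0.311). Cacna1c was at 149, 144 and 190 CPM in L/L, cre libraries, against 309, 397 and 359 CPM in L/L libraries.

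Of 9 ryanodine receptor isoforms and channel regulators, 2 were higher and 1 lower. These shares, 22.2% and 11.1%, lay near the 18.7% and 17.8% of all tested genes. Ryr3, a minor isoform in heart, rose by 1.99 (SE 0.47, adjusted p = 8.45e-03), with 36.8, 14.4 and 12.4 CPM in L/L, cre libraries, against 4.97, 2.67 and 8.60 CPM in L/L libraries. L/L, cre replicate 1 was the highest, the value was 1.33 without it, and the call was lost with a robust fit (adjusted p = 0.0519). Sorcin, Sri, rose by 0.55, and the TRIC-A counter-ion channel Tmem38a fell by 1.02. Of 4 other dyad and triad proteins only Speg, a muscle kinase, was lower, at -1.08 (25% of them, against 17.8% of all tested genes). With library size alone the calls of Tmem38a (-0.32, adjusted p = 0.180) and Speg (-0.37, adjusted p = 0.154) were lost.

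Calcium extrusion and sodium pump genes had 3 of 6 lower (50%, against 17.8% of all tested genes) and 0 higher (against 18.7%). Among them was phospholemman, Fxyd1, a regulator of the sodium pump, at -0.49, or 0.21 with library size alone. Of 9 other luminal calcium-binding proteins and chaperones 2 were higher and 0 lower, Rcn1 at 0.56 and Sdf4 at 0.46. The share higher, 22.2%, lay near that of all tested genes. The Sdf4 call was lost without L/L, cre replicate 2 (0.40) or L/L replicate 2 (0.44). IP3 receptors and store-operated entry genes had 4 of 7 lower (57.1%) and 1 higher (14.3%). Itpr1 was at -0.65, Itpr2 at -0.49 and the store sensor Stim1 at -0.56, values of 0.05, 0.20 and 0.13 with library size alone. Stim1 was no longer called without L/L, cre replicate 2 (-0.49), L/L replicate 1 (-0.50) or L/L replicate 2 (-0.54).

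Kinases, phosphatases and cyclic AMP control had 6 of 16 lower (37.5%, against 17.8% of all tested genes) and 4 higher (25%, against 18.7%). Rcan1, a calcineurin inhibitor, rose by 1.84 (SE 0.26, adjusted p = 5.70e-04), at 299, 168 and 152 CPM in L/L, cre libraries, against 66.1, 44.6 and 62.4 CPM in L/L libraries. Camk2a, an isoform of the calmodulin kinase that phosphorylates Ryr2 and phospholamban, fell by 2.53 (SE 0.27, adjusted p = 1.42e-04), at 2.55, 4.94 and 4.43 CPM in L/L, cre libraries, against 17.5, 20.7 and 30.5 CPM in L/L libraries. Camk2d, named here after its values were seen, had the highest level per kilobase of the Camk2 isoforms in the list (7.46 CPM per kilobase in L/L, cre and 7.93 in L/L). It averaged 168 ± 5.13 CPM in L/L, cre and 178 ± 4.45 CPM in L/L (SD, n = 3 each), a log2 difference of -0.09 that did not pass the test (95% interval -0.33 to 0.16, edgeR adjusted p = 0.566). Prkaca, the protein kinase A catalytic subunit, fell by 0.82, and library size alone gave -0.12 (adjusted p = 0.602). For mitochondrial calcium uptake, 1 of 8 was higher, the uniporter regulator Micu2 at 0.70, and 1 lower, Letm1 at -0.60, or 0.11 with library size alone. The share was 12.5% in each direction, below the shares of all tested genes. Leaving out any 1 library other than L/L, cre replicate 1 ended the Letm1 call, with values of -0.67 to -0.47.

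**Figure D4:**
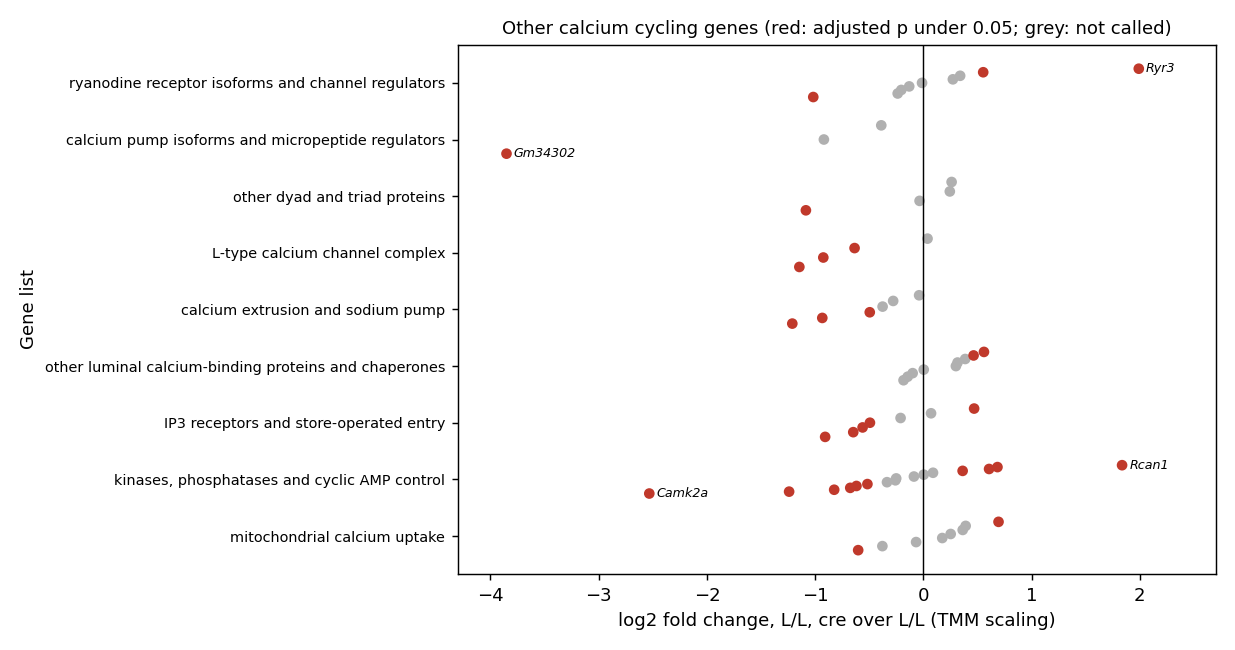
Log2 fold change (L/L, cre over L/L, TMM scaling) of 66 other calcium cycling genes by list, with genes past an adjusted p of 0.05 in red and others in grey. Gm34302 (Strit1) lies at -3.85 and Camk2a at -2.53 on the left, Ryr3 at 1.99 and Rcan1 at 1.84 on the right, and most lists hold genes on both sides of 0, a balance that library size alone moves to higher values.

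Likeness of profile was measured as the root mean square difference of log2 CPM over the 6 libraries, each gene centred on its mean, among 7301 other genes with a mean of at least 10 CPM. Closest to Hrc were Lrtm1 (0.16), Tmem82 (0.22) and Ogdhl (0.30 log2 units), and closest to Ryr2 were Gatsl2 (0.12), Etl4 (0.16) and Csdc2 (0.17). Lrtm1 was at 16.7, 18.1 and 34.4 CPM in L/L, cre libraries, against 193, 175 and 189 CPM in L/L libraries, with L/L, cre replicate 3 the highest of its group, as for Hrc. Gatsl2 was at 7.64, 5.81 and 8.70 CPM in L/L, cre libraries, against 19.5, 19.9 and 24.97 CPM in L/L libraries, with L/L, cre replicate 2 the lowest, as for Ryr2. Both genes were picked for likeness over these same 6 libraries, so the shared order of replicates follows from that choice.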

How the data were processed

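The submitters' processing notes name the build mm10 and the tools DESeq2 1.16.1, featureCounts 1.5.1, SAMtools 1.5 and HISAT2 2.0.5; their options are not given in the sources used here. The authors deposited whole-number counts per gene and library, without normalisation. Per the file headers, the authors' table gives log2 fold changes, standard errors, p-values and adjusted p-values. Technical replicates of a mouse arrived as 1 column, and libraries of a group differed by more than sampling noise (chi-square per degree of freedom at least 8.93). Counts were tested with the edgeR 4.0.16 quasi-likelihood test in R 4.3.3 (TMM, filterByExpr at a minimum count of 10, no block, Benjamini-Hochberg over all tested genes, called under 0.05). The SE is the log2 fold change divided by the square root of F. Positions and exon lengths came from GENCODE M21 (GRCm38, the same build as mm10), matched by gene identifier. Each library is 1 mouse by the series' design. The edgeR p-values rest on the spread between these mice, with the spread of each gene drawn toward that of other tested genes.

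The members and lists were chosen with earlier results of these data known. All 10 genes are named, with up to 3 called genes per pathway list (some are not reported here), up to 2 per marker list, and 3 genes by likeness to Hrc and to Ryr2 (prior count 2). The named marker genes other than Myh6 and Mb were Gja5 (-0.92), Kdr (-0.96), Tek (-0.43, or 0.26 with library size alone), Acta2 (-1.65), Cnn1 (1.41), Lyz2 (0.52) and Alas2 (0.81), as log2 fold changes, the calls of Gja5, Tek and Alas2 being lost when some single libraries were left out. With library size alone the calls of Mb (-0.27), Gja5 (-0.24) and Kdr (-0.26) were lost. Arln and Erln were not matched. The alternatives tried were library size alone, RLE, TMM factors computed after dropping either mitochondrial-encoded genes or the pair Gm42418 and Lars2, other filters, DESeq2 1.42.0, limma-voom 3.58.1, a robust fit, a replicate block, each library left out, and cardiomyocyte marker scaling. The test was tried on simulated counts, whose outcome is not reported here.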

Additional observations from a re-analysis of the deposited data

How the results depend on the processing

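For the 10 calcium release and uptake genes, 5 to 8 were called lower under RLE scaling, TMM scaling that left out the mitochondrial-encoded genes or the pair Gm42418 and Lars2, no filter, a filter of 50 counts in 3 libraries, DESeq2, limma-voom, a robust fit, the replicate block, the authors' deposited table and each library left out, against 7 in the reported test. Leaving out 1 library gave 5 to 8 lower and 0 to 1 higher, the 1 being Slc8a1 without L/L, cre replicate 1. Hrc, Ryr2, Atp2a2 and Pln were called lower in each of those. Over all genes the same settings called 1795 to 2934 lower and 1899 to 3132 higher, against 2544 and 2671 in the reported test. Same-numbered libraries did not deviate together (correlations -0.198, 0.085 and -0.087), so the numbers were not taken as pairs. With the replicate block 6 were lower and 0 higher, Trdn being the call lost, and over all genes 2115 were lower and 2178 higher.

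An adjusted p under 0.01 called 3 lower and 0 higher of the 10, 15 lower and 6 higher of the other calcium cycling genes, and 1415 lower and 1591 higher over all genes. Library size alone called 2 lower and 1 higher of the 10, 2 lower and 33 higher of the other calcium cycling genes, and 552 lower and 8093 higher over all genes. The scaling to cardiomyocyte markers, chosen after seeing the data, called 3 lower and 1 higher of the 10, 9 lower and 31 higher of the other calcium cycling genes, and 877 lower and 7067 higher over all genes. These scalings set the median of all tested genes at 0.68 and 0.49.

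Signs turned with library size alone for Casq2 (0.34), Casq1 (0.35), Trdn (0.27), Asph (0.17), Jph2 (0.093), Cacna2d1 (0.062), Fxyd1 (0.21), Itpr1 (0.049), Itpr2 (0.20), Stim1 (0.13), Letm1 (0.11) and Tek (0.26). They turned with the scaling to cardiomyocyte markers for Casq2 (0.16), Casq1 (0.18), Trdn (0.088), Fxyd1 (0.011), Itpr2 (0.015) and Tek (0.080). The log2 ratio of Casq1 to Casq2, -0.17, ran from -0.76 to 0.20 with 1 library left out and was 0.033 from means of ratios. Depth limits the low genes most, Strit1 having at most 5 counts in an L/L, cre library. Casq1 had 95 to 579 counts in those libraries, with a coefficient of variation of 75.2%, so its values also differed widely between libraries.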
